A study of Mus musculus with 12 samples.

Results

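The mouse mitochondrial genome carries 37 annotated genes with symbols that start with mt-, of which 13 code for proteins, 2 for ribosomal RNAs and 22 for transfer RNAs, and all 37 are described here as 1 group of transcripts chosen by symbol alone. Of these, 15 were listed with a value in at least 1 mouse, namely the 13 protein-coding and the 2 rRNA genes, among 24590 genes listed in all. Hippocampal RNA came from 12 male mice, aged 8 to 15 weeks per the protocol that describes the behavioural cohort, of 2 lines whose deletions remove different exons of Shank2, which encodes a scaffold of excitatory synapses. The exon 6-7 line gave 3 knockout mice (KO776, KO777 and KO864) that lack exons 6 and 7 and 3 wild-type littermates (WT778, WT809 and WT865). The exon 7 line gave 3 knockout mice (KO969, KO990 and KO994) that lack exon 7 and 3 wild-type littermates (WT628, WT993 and WT999). All 4 groups share a background labelled mixed C57BL/6J and C57BLl/6N, and total hippocampal RNA was selected for poly(A) before library preparation.

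The mitochondrial genome is transcribed from both strands into long precursors that span nearly the whole circle. The precursors are cut where tRNAs lie between the longer genes, and most of the released mRNAs then receive short poly(A) tails, which for several of them complete the stop codon. The 13 proteins are subunits of respiratory chain complexes I, III, IV and V, the rest of which are encoded in the nucleus, and neurons depend on this chain for the energy that synaptic signalling consumes.

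The sequences below, in the mm10 build and read from the GENCODE M21 transcripts, show where members share bases with a neighbour or with a nuclear copy, since a read made of such bases fits more than 1 gene. The whole of mt-Nd4l (chrM:9877-10173, plus strand) is printed with capitals on the 294 bases that are identical in Gm10222, an annotated pseudogene on chromosome 1.
mt-Nd4l: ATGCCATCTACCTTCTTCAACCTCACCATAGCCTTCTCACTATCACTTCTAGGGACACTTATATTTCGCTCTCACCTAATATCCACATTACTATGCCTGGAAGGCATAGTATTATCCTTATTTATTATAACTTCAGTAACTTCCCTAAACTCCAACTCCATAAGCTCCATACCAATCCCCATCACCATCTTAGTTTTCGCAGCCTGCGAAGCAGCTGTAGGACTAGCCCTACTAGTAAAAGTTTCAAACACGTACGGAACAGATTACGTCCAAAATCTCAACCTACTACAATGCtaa
The chromosome 1 match of mt-Co1 begins and that of mt-Nd4 ends inside the gene. A pseudogene on chromosome 2, Gm13340, described below, also matches part of mt-Co1. The 120 bases around each edge are given with the side identical to the chromosome 1 copy in capitals (mt-Co1 at chrM:6334-6453 and mt-Nd4 at chrM:10983-11102, both plus strand).
mt-Co1: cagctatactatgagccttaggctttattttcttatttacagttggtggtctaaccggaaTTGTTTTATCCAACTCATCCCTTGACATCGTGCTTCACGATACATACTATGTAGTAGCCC
mt-Nd4: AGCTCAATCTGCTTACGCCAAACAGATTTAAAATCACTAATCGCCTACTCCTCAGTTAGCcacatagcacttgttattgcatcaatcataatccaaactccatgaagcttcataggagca
The gene mt-Atp8 (chrM:7766-7969, plus strand) is shown with capitals on the 43 bases that also belong to mt-Atp6.
mt-Atp8: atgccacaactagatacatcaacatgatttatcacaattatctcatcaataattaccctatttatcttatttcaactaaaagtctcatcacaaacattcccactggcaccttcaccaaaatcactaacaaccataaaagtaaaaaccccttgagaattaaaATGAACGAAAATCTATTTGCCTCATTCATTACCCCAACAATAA
The last 45 bases of mt-Nd5 (chrM:13521-13565, plus strand) and of mt-Nd6 (chrM:13552-13596, minus strand) are shown with the 14 bases at which these genes overlap on opposite strands in capitals.
mt-Nd5 end: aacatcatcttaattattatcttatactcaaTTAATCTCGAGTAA
mt-Nd6 end: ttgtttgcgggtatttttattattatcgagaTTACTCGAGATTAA
The last 30 bases of mt-Co3 (chrM:9361-9390), mt-Nd4 (chrM:11515-11544) and mt-Cytb (chrM:15259-15288), all on the plus strand, end in a lone T, in capitals, that becomes a full stop codon once adenines are added.
mt-Co3 3 prime: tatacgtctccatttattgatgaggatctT
mt-Nd4 3 prime: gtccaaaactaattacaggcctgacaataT
mt-Cytb 3 prime: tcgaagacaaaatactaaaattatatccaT

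The values are FPKM per gene (fragments scaled to transcript length and to the fragments mapped in the library), scaled here so that the typical gene is at the same level in every library. FPKM keeps no read totals, so the depth behind a value is unknown. Each library listed between 19515 and 20334 genes. No mouse number recurs, so replicates are separate animals. Shank2, the deleted gene, was at 14.4 ± 0.576 scaled FPKM (SD, n = 3) in the exon 6-7 wild types and 6.46 ± 0.483 in their knockouts. In the exon 7 line it was at 40.8 ± 4.24 and 40.4 ± 6.29, a gene-level value that sums all exons and does not check the exon 7 label. All 8 hippocampal neuron markers on a list drawn up for this purpose were detected in each mouse, their sums running from 2132 to 2484 in mice of the exon 6-7 line and from 2749.8 to 3226 in the other line. An earlier look at these data had found that 4 libraries, WT778, KO776, WT628 and KO969, did not list the gene ENSMUSG00000095746, which the other 8 libraries listed. These 4 are called set A and the other 8 set B. The labels do not mention the sets, and each group holds 1 library of set A and 2 of set B.

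The protein-coding members fell into 2 levels. The 7 abundant ones, mt-Co1, mt-Cytb, mt-Nd1, mt-Nd2, mt-Nd6, mt-Nd4 and mt-Nd5, lay between 793 and 16710.5 scaled FPKM in every mouse. The other 6, mt-Co2, mt-Atp8, mt-Atp6, mt-Co3, mt-Nd3 and mt-Nd4l, lay between 0 and 28.8 and together made up 0.0557 to 0.228% of the summed FPKM of the 13. By mean over the 12 mice, mt-Co1, mt-Cytb, mt-Nd1 and mt-Nd2 held ranks 1, 2, 3 and 4 of all listed genes, whereas mt-Co2, the highest of the scarce genes, held rank 6155 and mt-Nd4l rank 13212. The 6 scarce genes are neighbours: they run from base 7013 to base 10173 of the mitochondrial genome with only tRNA genes between them, and mt-Co1 before and mt-Nd4 after them are abundant. These levels are per length, but no source used here says how reads that fit several genes were counted, which limits the comparison between genes.

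The stretch of scarce genes coincided with a near-identical nuclear copy. On chromosome 1, 7 annotated pseudogenes lie within 4663 bases (chr1:24611535-24616197, minus strand, mm10) in the same order as the mitochondrial genes they resemble. The pseudogenes of mt-Co2, mt-Atp6, mt-Co3, mt-Nd4l and the first 876 bases of mt-Nd4 match their mitochondrial counterpart at 100% of the facing bases. The copy of mt-Nd3 differs by the single substitution T3C, counted from the 5′ end of mt-Nd3 with the mitochondrial base named first, and is 99.7% identical. The copy of mt-Co1 covers its last 492 bases at 98.8% identity, with the substitutions T1056A, C1057T, A1059G, A1060G, C1062A and A1066T close to the edge printed above.

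Every stretch of 50 bases was compared with the annotated nuclear transcripts. Of such stretches, 100% of those in mt-Co2 were also found in a nuclear transcript, as were 99.5% of those in mt-Atp6, 99.9% in mt-Co3, 98.0% in mt-Nd3 and 98.8% in mt-Nd4l. The abundant genes at both edges shared fewer, 51.1% in mt-Co1 and 62.2% in mt-Nd4. The shares were 8.19% in mt-Nd2, 7.61% in mt-Nd5 and 1.04% in mt-Rnr2, and 0 stretches were shared in mt-Rnr1, mt-Nd1, mt-Nd6 and mt-Cytb. The scarce mt-Atp8 also shared 0 stretches with an annotated transcript. It lies in the 230 bases between mt-Co2 and mt-Atp6, plus its overlap with the latter, and the chromosome 1 copies of those 2 genes are 233 bases apart with no gene annotated between them; that genomic stretch was not read here. No source used here says how the authors' counting treated reads that fit several places, and its part in the 2 levels was not tested.

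**Figure D1:**
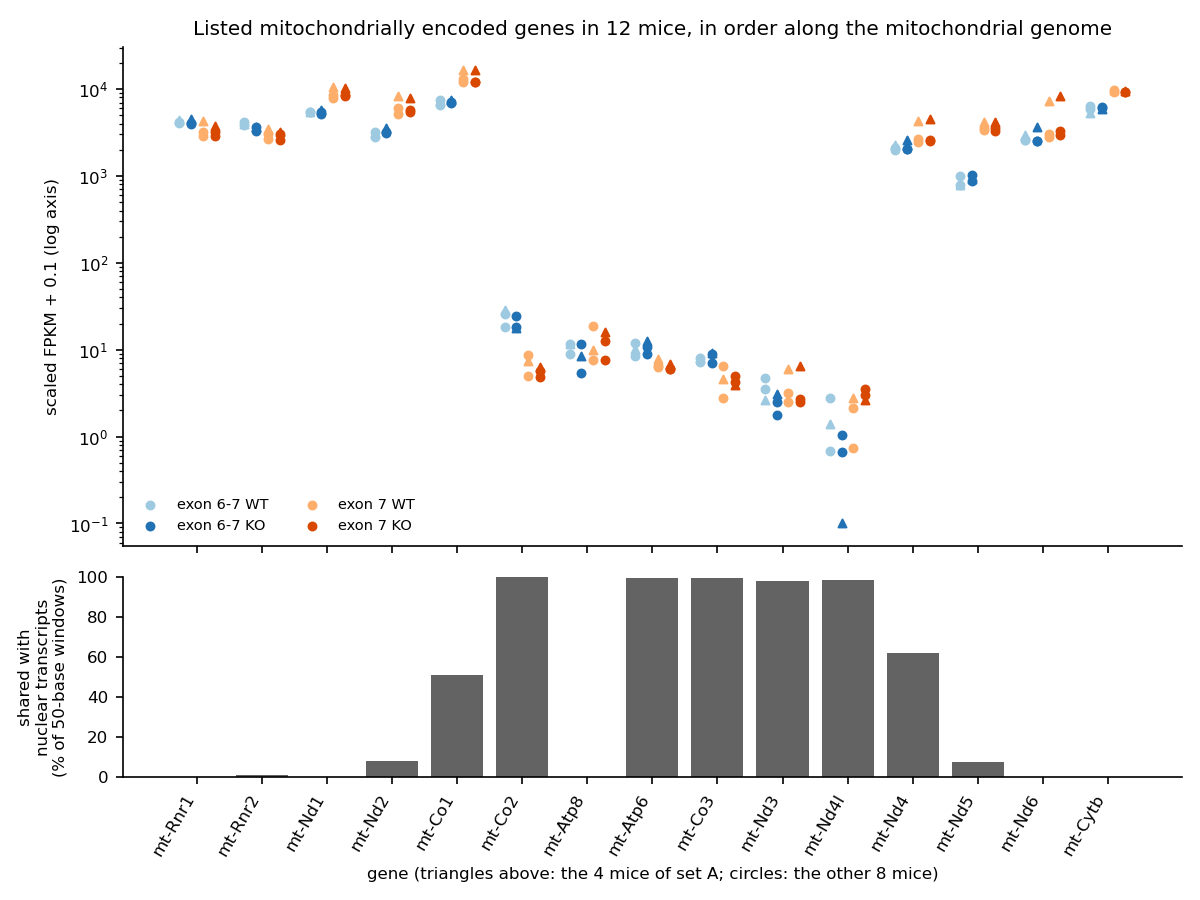
Scaled FPKM of the 15 listed genes (upper panel, log axis, 1 point per mouse, colours by group, triangles for the 4 mice of set A; a constant was added so that a value of 0 can be drawn) and the percentage of 50-base stretches that each gene shares with annotated nuclear transcripts (lower panel), with genes in mitochondrial order. The 6 scarce genes form 1 block between mt-Co1 and mt-Nd4, and 5 of the 6 share 98.0 to 100% of their stretches.

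For mt-Nd4l the files allow a direct look, because its copy Gm10222 has values too, with a mean of 1.56 FPKM as deposited. The deposited FPKM of mt-Nd4l and Gm10222 were the same to every digit in 8 of 12 mice, for example 1.35 for both in WT778 and 2.44 for both in WT628. In the remaining mice mt-Nd4l was at 2.5 times the copy's value in WT865 and KO994 and at 0.6 times in KO990, and in KO776 it was listed at no value while the copy was at 0.589. Values of mt-Nd4l are therefore reported as uncertain. The other 6 chromosome 1 copies were not listed in any mouse, so the same look was not possible for mt-Co2, mt-Atp6, mt-Co3 and mt-Nd3. These genes share 98.0 to 100% of their stretches with nuclear transcripts, and their values are uncertain as well.

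The 3 other nuclear transcripts with a mean of at least 1 FPKM that share stretches with a member lie next to each other on chromosome 2. Gm13340, which matches 27.5% of the stretches of mt-Co1, had a mean of 6.53 FPKM, Gm13341, which matches 35.3% of those of mt-Co2, had 18.7, and Gm13339, which matches 8.19% of those of mt-Nd2, had 4.75. Gm13341 thus stood at a level like that of mt-Co2, whereas Gm13340 stood far under mt-Co1.

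None of the 22 tRNA genes was listed in any mouse. Their transcripts are 59 to 75 bases long, and the RNA was selected for poly(A). Why these genes are unlisted was not tested. An unlisted gene was treated as a value of 0, which can be a failed estimate. Nothing is reported about tRNA levels.

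The knockout of either Shank2 exon set was compared with wild-type littermates to ask whether mitochondrial transcripts differ. Mitochondrially encoded genes made up 6.72, 6.22 and 6.81% of the summed FPKM in the exon 6-7 wild types WT778, WT809 and WT865, and 7.39, 6.65 and 6.74% in the knockouts KO776, KO777 and KO864. In the exon 7 line the shares were 13.6, 10.3 and 10.9% in WT628, WT993 and WT999, and 14.3, 10.9 and 10.8% in KO969, KO990 and KO994. Knockout and wild-type mice overlapped in both lines, and the highest mouse of each group in the exon 7 line was the one of set A. The knockout mean was higher by 0.344 percentage points for exons 6-7 (two-sided exact permutation test, p = 0.5) and by 0.377 for exon 7 (p = 0.7, exact permutation test), where 3 mice against 3 cannot give a p below 0.1. Without KO969 the difference of the exon 7 line was -0.773, and without WT993 it was -0.290, so its direction rests on single mice. Within set B, the differences were 0.182 and 0.240 percentage points.

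Of the 15 genes, 0 differed between knockout and wild type in the exon 6-7 line, where limma's moderated test with Benjamini-Hochberg adjustment called 0.014% of the 14238 genes tested. The count was 0 of 15 in the exon 7 line too, where 0.0% of all genes were called. At an unadjusted p under 0.05 the counts were 0 of 15 in both lines, beside 584 and 493 of all genes. The difference of the 2 knockout effects called 0 of 15 (0.00702% of all genes), and their mean called 0 of 15 (0.014% of all genes); at an unadjusted p under 0.05 these counts were 1 and 0 of 15, beside 558 and 512 of all genes. The 95% interval of the knockout effect on mt-Cytb, the narrowest among the abundant genes, was -0.14 to 0.25 log2 units (exon 6-7) and -0.21 to 0.18 (exon 7). For mt-Nd6, the widest of the 7, it was -0.80 to 0.94 and -0.72 to 1.02.

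The 7 abundant protein-coding genes had log2 fold changes of -0.01 to 0.14 in the exon 6-7 knockouts and -0.03 to 0.15 in the exon 7 knockouts. The median over all 13 protein-coding genes was 0.05 for the exon 6-7 knockouts and -0.01 for the exon 7 knockouts, beside medians of -0.00213 and -0.00828 over all genes tested. The sign of neither median was stable: that of the exon 6-7 line turned to -0.054 with quantile normalization, -0.037 within set B and -0.047 without KO776, and that of the exon 7 line to 0.034 rescaled to TPM and 0.10 without WT628. Both rRNA genes were slightly under the wild type in each line, with log2 fold changes for mt-Rnr2 and mt-Rnr1 of -0.16 and -0.02 (exon 6-7) and of -0.04 and -0.06 (exon 7), and no test was passed.

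By scaled FPKM, a single member in the exon 6-7 line, mt-Rnr2, the large subunit rRNA of the mitochondrial ribosome, had knockout mice that lay apart from the wild types. Its scaled FPKM was 3932, 4179 and 3809 in the wild types (WT778, WT809 and WT865) and 3672, 3333 and 3686 in the knockouts (KO776, KO777 and KO864). All 3 knockouts were lower, by -0.16 on the log2 scale (SE 0.115, adjusted p = 1.0, limma). Groups failed to overlap for 11.3% of all genes in this comparison, against 1 of 15 here. In the exon 7 line the groups overlapped for each of the 15 genes, beside 7.03% of all genes without overlap. As a share of the summed FPKM of the 13 protein-coding genes, mt-Nd2 lay apart in the exon 6-7 line. It made up 12.1, 11.7 and 11.8% in KO776, KO777 and KO864 against 11.3, 10.7 and 11.3% in WT778, WT809 and WT865. The other shares overlapped in this line, as did all of them in the exon 7 line, and shares of single genes were not tested. These shares have no counterpart over all genes and depend on one another, since they add up to a fixed sum.

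The largest fold change in either knockout belonged to the uncertain mt-Nd4l, a small subunit of complex I. It was at 1.31, 0.591 and 2.68 scaled FPKM in the exon 6-7 wild types, and in the knockouts at no listed value in KO776, 0.561 in KO777 and 0.943 in KO864. In the exon 7 line it was at 2.66, 0.643 and 2.06 in the wild types and at 2.52, 2.91 and 3.46 in the knockouts. The groups overlapped in both lines, and the 2 effects had opposite signs, with log2 fold changes of -0.72 (SE 0.350) and 0.58 (SE 0.350). Their difference was 1.30 (SE 0.495, unadjusted p = 0.0225, limma adjusted p = 1.0). The pseudogene Gm10222 had log2 fold changes of -0.23 and 0.47.

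The scarce mt-Co2, subunit 2 of cytochrome c oxidase, was at 28.8, 25.6 and 18.2 in the exon 6-7 wild types and 17.7, 24.2 and 17.95 in the knockouts. In the exon 7 line it was at 7.25, 8.52 and 4.91 in the wild types and 6.29, 4.76 and 5.55 in the knockouts. Its log2 fold change was -0.25 in each line (SE 0.203), with overlapping groups and no test passed.

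**Figure D2:**
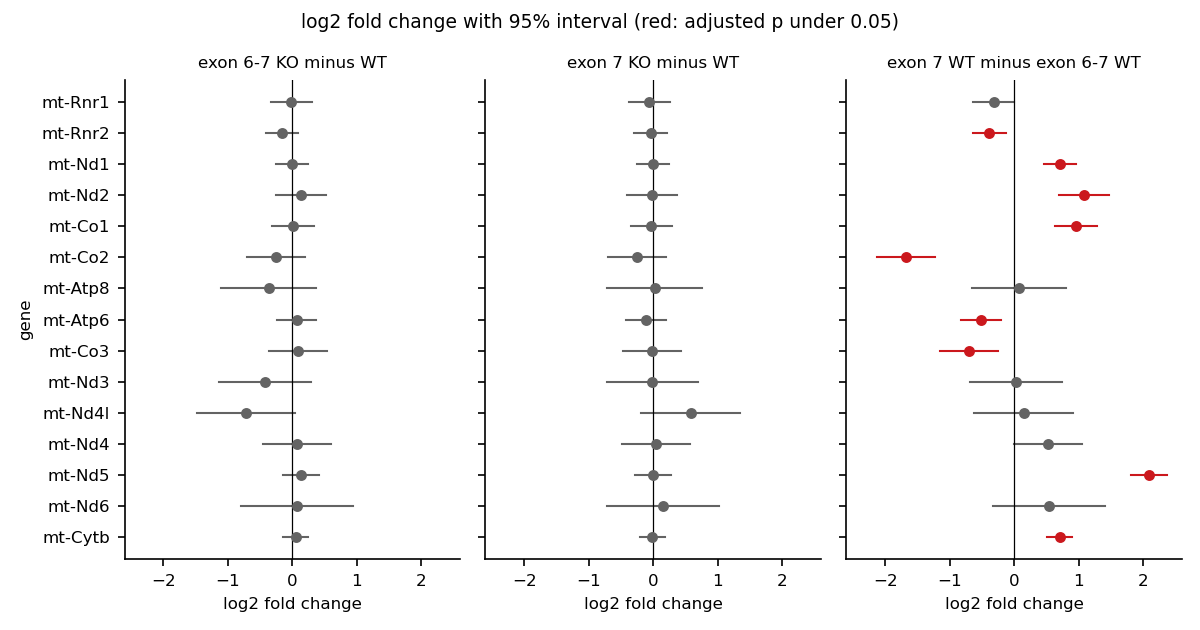
Log2 fold change of each listed gene (points) with its 95% interval (lines) in the knockouts of the exon 6-7 line, the knockouts of the exon 7 line and the exon 7 wild types against the exon 6-7 wild types; red marks an adjusted p under 0.05. No gene is red in the knockout panels, and 9 of 15 are red between the wild types.

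The wild types of the 2 lines were compared next. They differed in most genes tested. The labels name no batch, and the line and the making of its libraries cannot be told apart. The mitochondrial share was higher in the exon 7 wild types by 5.03 percentage points, 11.6 ± 1.78% against 6.58 ± 0.321% (SD, n = 3 each, two-sided exact permutation test, p = 0.1, the smallest this design allows), with no overlap. The rise lay in the protein-coding genes, at 10.3 ± 1.59% against 5.06 ± 0.310%, while the rRNA genes made up 1.34 ± 0.195% against 1.53 ± 0.0487% and overlapped. The ratio of protein-coding to rRNA FPKM was 3.25, 3.14 and 3.56 in WT778, WT809 and WT865 and 7.81, 7.42 and 7.82 in WT628, WT993 and WT999. The knockouts followed their line, with 3.56 to 3.65 and 7.19 to 8.80, so that the ratio parted the lines in all 12 mice. Within the exon 6-7 line the knockouts lay above the wild types without overlap, by 0.305 on average (two-sided exact permutation test, p = 0.1, the smallest possible), although the lowest knockout, at 3.563, was barely above the highest wild type, at 3.562. In the exon 7 line knockouts and wild types overlapped in this ratio. The share is a ratio, and both of its terms differed: the summed FPKM of the mitochondrially encoded genes was 1.43 times as high in the exon 7 as in the exon 6-7 wild types, and the summed FPKM of all genes 0.810 times, at 453879 to 463033 against 547993 to 588642.

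**Figure D3:**
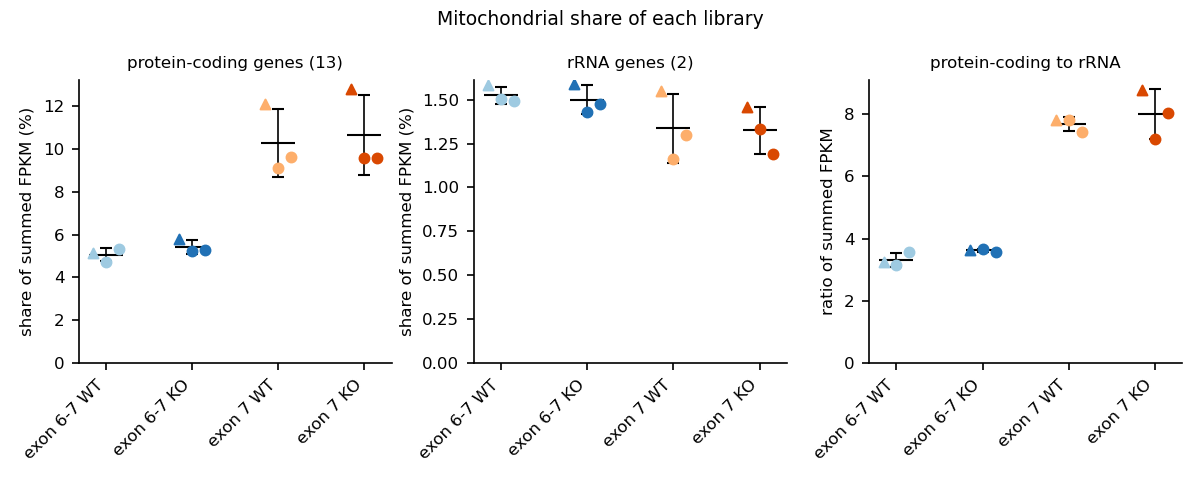
Share of summed FPKM held by the 13 protein-coding genes (left) and by the 2 rRNA genes (middle), in percent, and the ratio of these sums (right), for each mouse, with group mean and SD in black and triangles for set A. The ratio lies between 3.14 and 3.65 in the 6 mice of the exon 6-7 line and between 7.19 and 8.80 in the 6 mice of the exon 7 line.

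Of the 15 genes, 9 passed limma's test between the wild types, beside 67.0% of all genes. They were 5 of 15 higher in the exon 7 line (33.9% of all genes) and 4 of 15 lower (33.1%), so that the share of members called was close to that of all genes. Groups did not overlap for 10 of 15, beside 70.1% of all genes. All 7 abundant protein-coding genes had a log2 fold change above 0 under each alternative run, and their median was 0.71, against -0.01 over all genes tested. Over all genes the balance of higher and lower calls, 4828 to 4717, depended on scaling and was 5976 to 3526 when libraries were scaled on genes that are not mitochondrially encoded; the scalings moved the median of all genes by -0.13 to 0.20.

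The largest difference was in mt-Nd5, a proton-pumping subunit of complex I. Its scaled FPKM was 793, 796 and 1005 in WT778, WT809 and WT865, against 4134, 3369 and 3562 in WT628, WT993 and WT999. All exon 7 wild types stood over all exon 6-7 wild types, by 2.10 log2 units (SE 0.128, limma adjusted p = 9.03e-08), and the knockouts were at 876 to 1025 and 3274 to 4186. As a share of the 13 protein-coding genes, which does not depend on library scaling, mt-Nd5 made up 3.18 ± 0.340% in the exon 6-7 and 7.44 ± 0.545% in the exon 7 wild types.

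The other called complex I genes were mt-Nd2 and mt-Nd1, both membrane subunits. In the exon 6-7 wild types mt-Nd2 was at 3087, 2785 and 3198, and in the exon 7 wild types at 8316, 5209.7 and 6004 (log2 fold change 1.08, SE 0.176, adjusted p = 1.78e-04, limma). For mt-Nd1 the values were 5494, 5514 and 5392 against 10469, 7995 and 8597 (0.71, SE 0.115, adjusted p = 1.66e-04, limma). Neither gene's groups overlapped. The remaining abundant complex I genes, mt-Nd4 and mt-Nd6, did not pass in this fit. The scaled FPKM of mt-Nd4 was 2293, 1973 and 2096 against 4311, 2451 and 2643 (0.52, SE 0.240, adjusted p = 0.0746, limma), and the gene passed in 7 of the alternatives, with log2 fold changes of 0.33 (within set B, adjusted p = 0.00219) to 0.75 (scaled on genes that are not mitochondrially encoded, adjusted p = 0.0155). These include the fit with library set as a term (0.52, adjusted p = 0.00200) and the fits without WT993 (0.67, adjusted p = 0.0417) and without KO969 (0.52, adjusted p = 0.0278).

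In complex IV, mt-Co1, the catalytic subunit, and mt-Co2 and mt-Co3 differed in opposite directions. The level of mt-Co1 was 7315, 6475 and 7433 in the exon 6-7 and 16421, 11928 and 13047 in the exon 7 wild types (log2 fold change 0.95, SE 0.148, adjusted p = 1.23e-04, limma). By contrast mt-Co2 was lower in the exon 7 wild types, at 7.25, 8.52 and 4.91 against 28.8, 25.6 and 18.2 (-1.68, SE 0.203, adjusted p = 1.60e-05, limma). Its partial copy on chromosome 2, Gm13341, stood beside it with 7.72 to 8.49 against 21.6 to 35.1 and a log2 fold change of -1.72 (SE 0.164). The scarce mt-Co3 was at 4.52, 6.38 and 2.68 against 7.86, 7.87 and 7.15 (-0.70, SE 0.204, adjusted p = 0.00933, limma) and did not pass within set B (-0.71, adjusted p = 0.0586). The pseudogene matched by mt-Nd2, Gm13339, was lower as well (-1.16, SE 0.259), opposite to mt-Nd2, and Gm13340, matched by mt-Co1, was higher (0.45, SE 0.170). The part that reads from nuclear copies have in the scarce genes was not tested.

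For complex III, mt-Cytb was at 5271, 5866 and 6431 in the exon 6-7 and 9757, 9184 and 9642 in the exon 7 wild types (log2 fold change 0.71, SE 0.0898, adjusted p = 2.37e-05, limma). It was the most even member between mice of the exon 7 line, with a coefficient of variation of 3.18% in the wild types and 1.10% in the knockouts. For complex V, mt-Atp6 was at 7.70, 6.29 and 6.33 against 10.2, 11.7 and 8.47 (-0.51, SE 0.140, adjusted p = 0.00654, limma). It did not pass when libraries were scaled on genes that are not mitochondrially encoded (-0.33, adjusted p = 0.0643). The level of mt-Atp8 was 9.86, 18.9 and 7.56 against 11.6, 8.93 and 11.7, with overlap (0.08, SE 0.336). The complex I genes mt-Nd3 and mt-Nd4l, with log2 fold changes of 0.03 and 0.15, overlapped too, and the signs of mt-Atp8, mt-Nd3 and mt-Nd4l changed with the setting.

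Of the rRNAs, mt-Rnr2 was at 3483, 2630.4 and 3078 in the exon 7 wild types, lower than in the exon 6-7 wild types given above (log2 fold change -0.38, SE 0.115, adjusted p = 0.0109, limma). It did not pass without WT993 (-0.28, adjusted p = 0.0527), with quantile normalization (-0.19, adjusted p = 0.0560), rescaled to TPM (-0.24, adjusted p = 0.0598), scaled on genes that are not mitochondrially encoded (-0.16, adjusted p = 0.224) or with no filter on low values (-0.38, adjusted p = 0.120, limma). The small subunit rRNA, mt-Rnr1, was at 4280.4, 2864 and 3189 against 4457, 4124 and 4118 (-0.32, SE 0.145, adjusted p = 0.0703, limma) and passed in 5 alternatives: without WT628 (-0.48, adjusted p = 0.00465), with library set as a term (-0.32, adjusted p = 0.00535), within set B (-0.44, adjusted p = 0.00107), with FPKM as deposited (-0.47, adjusted p = 0.00699) and with array weights (-0.42, adjusted p = 0.00394, limma). The ratio of mt-Rnr1 to mt-Rnr2 was 1.07 ± 0.0743 and 1.12 ± 0.0996 (SD, n = 3) in the 2 wild types.

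Quantile normalization, which gives every library the same set of values, ended the calls of mt-Nd1 (0.10, adjusted p = 0.442), mt-Co1 (0.12, adjusted p = 0.390) and mt-Cytb (0.05, adjusted p = 0.587, limma). By mean FPKM these genes held ranks 3, 1 and 2 of all genes, while mt-Nd2, at rank 4, kept its call. The cause was not tested. Within the 13 protein-coding genes, 8 had a share that did not overlap between the wild types, among them mt-Co1 with 26.0 ± 1.04 and 27.6 ± 0.496% and mt-Nd1 with 20.1 ± 1.03 and 18.1 ± 0.740% (SD, n = 3). Such shares have no counterpart over all genes, of which 70.1% did not overlap by scaled FPKM. They also depend on one another, since they add up to a fixed sum.

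Among the abundant genes, the one that varied most between mice of a group, in every group but the exon 6-7 wild types, was mt-Nd6, the lone protein-coding gene on the minus strand, whose mRNA is known to lack the poly(A) tail that the other mitochondrial mRNAs carry. Its scaled FPKM was 2924, 2597 and 2625 in the wild types WT778, WT809 and WT865, and the knockouts KO776, KO777 and KO864 had 3673, 2521 and 2494. Of the exon 7 line, the wild types WT628, WT993 and WT999 had 7203, 2801 and 3004, and the knockouts KO969, KO990 and KO994 had 8388, 3302 and 2982. In each of the 4 groups the highest mouse was that of set A, at 1.12 (WT778) and 1.47 times (KO776), and at 2.48 (WT628) and 2.67 times (KO969), the mean of the other 2 mice. Between the wild types mt-Nd6 differed by 0.53 log2 units (SE 0.398, limma adjusted p = 0.252). It passed with library set as a term (0.53, limma adjusted p = 0.0419) and with quantile normalization (0.53, limma adjusted p = 0.0395). The difference was 1.30 within set A, which holds 1 mouse a group and allows no test, and 0.15 within set B. The strand setting of the counting is not given, so mt-Nd6 reads cannot be told apart from those of the precursor that runs opposite to it.

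The set A mouse was also the highest of its group in all 4 groups for mt-Nd4 and mt-Rnr1. WT628 and KO969 were the highest of their groups for mt-Rnr2, mt-Nd1, mt-Nd2, mt-Co1, mt-Atp6, mt-Nd3, mt-Nd5 and mt-Cytb as well. Ranked among 14238 genes by the log2 difference between the sets in the exon 7 line, mt-Nd6 (1.37) held rank 21, mt-Nd3 (0.98) rank 41 and mt-Nd4 (0.79) rank 143, while mt-Cytb (0.04) held rank 6097. In the exon 6-7 line the same differences were 0.36, -0.05, 0.27 and -0.15. The mitochondrial share was 13.6 and 14.3% in the set A mice of the exon 7 line against 10.3 to 10.9% in its set B mice. What set A stands for is not recorded, and its part in the values was not tested; within set B the share still differed by 4.08 percentage points between the wild types.

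**Figure D4:**
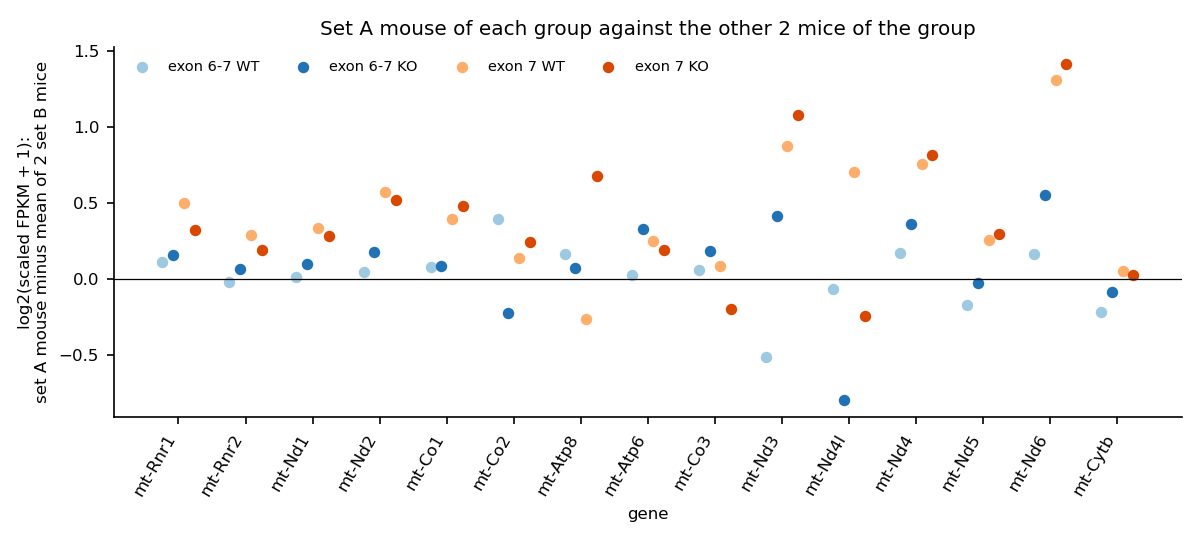
For each gene, log2(scaled FPKM + 1) of the set A mouse minus the mean of the 2 set B mice of its group, 1 point per group. The 2 groups of the exon 7 line lie highest at mt-Nd6, at 1.31 and 1.42, and near 0 at mt-Cytb, at 0.05 and 0.03.

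Nuclear genes that serve the mitochondrial genome were followed from lists. In the knockouts 0 members of any of these lists passed limma's test, beside 0.014% (exon 6-7) and 0.0% (exon 7) of all genes. The same percentages stand beside the counts of markers called below. Of 41 nuclear subunits of complexes I to V, 39 had a log2 fold change below 0 in the exon 6-7 knockouts (median -0.12) and 21 in the exon 7 knockouts (median -0.00139), beside 50.6% and 53.2% of all genes. Several marker lists of cell types also lay to 1 side of 0 in the exon 6-7 knockouts, where 0 markers passed the test. All 8 oligodendrocyte markers (median log2 fold change -0.38, sums of 4933 to 5060 against 5652 to 7002 in the wild types) and all 6 microglia markers (-0.17, 94.8 to 105 against 100.01 to 126) lay below 0. All 8 choroid plexus markers (1.503, 6759 to 8438 against 42.7 to 8639.9) and all 6 meninges markers (0.57, 61.6 to 68.0 against 43.99 to 51.9) lay above 0, as did all 5 blood markers (0.15, 400 to 504 against 277 to 539), while neuron, astrocyte and endothelium markers lay on both sides. In the exon 7 knockouts all 8 oligodendrocyte markers (median -0.08) lay below 0 and all 5 blood markers (0.73) above 0. The other marker lists lay on both sides there, and 0 markers passed the test. The part of these markers in the values of the nuclear subunits was not tested. The members with the smallest p were Cox6a1, a complex IV subunit, in the exon 6-7 line, at 795 ± 59.2 scaled FPKM in the wild types and 693 ± 12.96 in the knockouts (SD, n = 3, log2 fold change -0.19, limma adjusted p = 1.0), and Cox5a of the same complex in the exon 7 line, at 131 ± 2.69 and 153 ± 7.04 (0.22, limma adjusted p = 1.0).

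Between the wild types, the nuclear subunits lay opposite to the abundant mitochondrial ones. Of the 41, 38 were lower in the exon 7 line and 0 higher, with a median log2 fold change of -1.18, beside 33.1% of all genes lower. By complex, 6 of 7 core subunits of complex I, 3 of 4 of complex II, 8 of 9 of complex III, 10 of 10 of complex IV and 11 of 11 of complex V were lower. The ATP synthase subunit Atp5e was at 408 ± 55.8 in the exon 6-7 and 81.5 ± 0.895 in the exon 7 wild types (SD, n = 3, log2 fold change -2.30, limma adjusted p = 3.97e-08). Cox5a was at 393 ± 20.3 and 131 ± 2.69 (-1.58, limma adjusted p = 3.77e-08), and the complex III subunit Uqcr11 at 505 ± 52.9 and 144 ± 6.46 (-1.80, limma adjusted p = 6.09e-08). Ndufs8 of complex I (-1.25) and Sdhb of complex II (-1.24), a complex with no mitochondrially encoded subunit, were lower too. Of the 6 scarce mitochondrial genes, 3 had the same direction, namely mt-Co2, mt-Atp6 and mt-Co3. The other 3, mt-Atp8, mt-Nd3 and mt-Nd4l, had log2 fold changes of 0.08, 0.03 and 0.15, with overlapping groups.

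**Figure D5:**
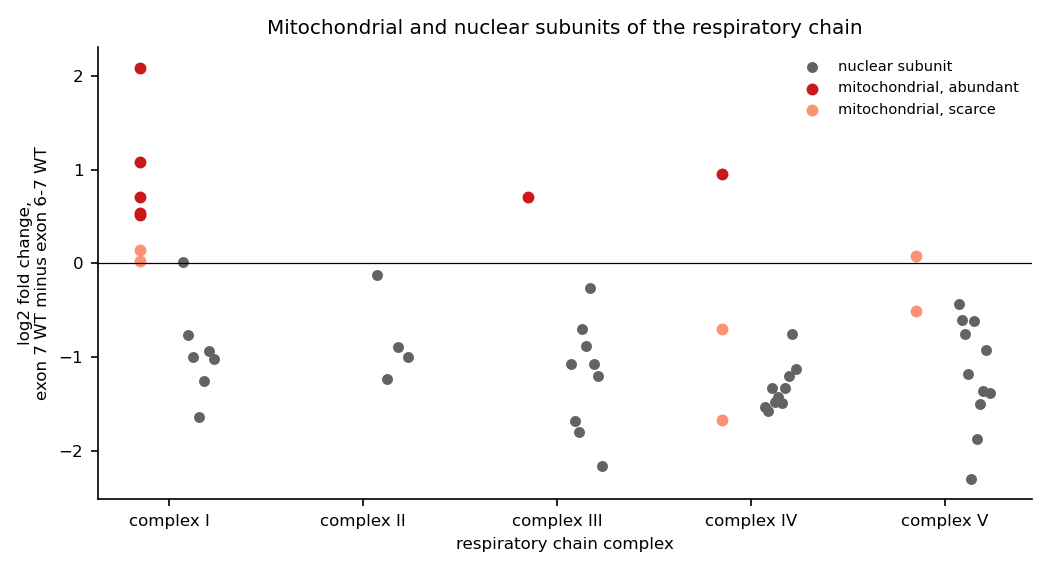
Log2 fold change of the exon 7 wild types against the exon 6-7 wild types for mitochondrially encoded subunits (red for the abundant, light red for the scarce) and nuclear subunits (grey) of respiratory chain complexes I to V. The 7 abundant mitochondrial genes lie between 0.52 and 2.10, and 40 of 41 nuclear subunits lie below 0, down to -2.30.

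Among 17 genes of mitochondrial DNA replication and transcription, 2 were higher and 7 lower in the exon 7 wild types. Counts in this paragraph stand beside 33.9% of all genes higher and 33.1% lower. Polrmt, the RNA polymerase that makes the mitochondrial precursors, was at 25.1 ± 2.91 in the exon 6-7 and 9.85 ± 3.13 in the exon 7 wild types (log2 fold change -1.30, limma adjusted p = 3.21e-05), and Tfb2m, its initiation factor, at 4.55 ± 0.553 and 7.22 ± 0.707 (0.57, limma adjusted p = 0.00246). Rnaseh1, which removes RNA from RNA-DNA hybrids, was lower (-0.58). Of 26 genes of mitochondrial RNA processing and stability, 7 were higher and 11 lower. Slirp, the partner of Lrpprc in keeping mitochondrial mRNAs stable, was at 46.8 ± 4.60 and 13.4 ± 0.864 (-1.73, limma adjusted p = 5.32e-08), and Mrm2, a methyltransferase of the large subunit rRNA, and Rexo2, an oligoribonuclease, were lower by -1.09 and -0.76 log2 units.

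Of 12 genes that stand for mitochondrial mass, 2 were higher and 6 lower, with Tomm40, the import pore of the outer membrane, at 59.8 ± 4.08 and 28.0 ± 1.94 (-1.07, limma adjusted p = 3.44e-07). Of 8 regulators of mitochondrial biogenesis, 5 were higher and 1 lower. The coactivator Ppargc1a was at 5.59 ± 0.677 and 19.1 ± 3.62 (log2 fold change 1.60, limma adjusted p = 1.86e-05), Ppargc1b at 0.558 ± 0.119 and 3.49 ± 0.497 (1.52) and the transcription factor Gabpa at 4.33 ± 1.22 and 14.9 ± 1.03 (1.61). These differences stand beside 67.0% of all genes called in the same comparison, 33.9% higher and 33.1% lower.

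Markers of cell types differed between the wild types as well, and their counts stand beside 33.9% of all genes higher and 33.1% lower. Of 8 oligodendrocyte markers 6 were lower in the exon 7 line, with summed levels of 5652 to 7002 in the exon 6-7 and 5306 to 5467 in the exon 7 wild types. Of 8 neuron markers 4 were higher and 1 lower, with sums of 2132 to 2484 and 2749.8 to 3124, and of 6 astrocyte markers 4 were higher and 2 lower, with sums of 1050.0 to 1419 and 1186 to 1230.0. The 8 choroid plexus markers summed to 42.7 in WT865 but 3988 and 8639.9 in WT778 and WT809, and to 1435 to 1741 in the exon 7 wild types, with 2 of 8 higher; no marker was at 0 in any mouse. Of 5 blood markers 4 were lower, with sums of 277 to 539 and 101 to 290.3. Of 6 microglia markers 1 was higher and 3 were lower (sums of 100.01 to 126 and 74.2 to 87.6), of 4 endothelium markers 3 were higher and 1 lower (49.6 to 59.4 and 49.96 to 61.1), and of 6 meninges markers 1 was higher and 0 were lower (43.99 to 51.9 and 57.2 to 58.98). The part of these in the mitochondrial values was not tested, and in whole hippocampus fewer cells of a type and less RNA per cell cannot be told apart.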

How the data were processed

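The authors deposited 1 table per mouse with FPKM per gene under Ensembl release 74 identifiers, per the file headers, and genes with a value above 0 are listed there. CASAVA, GSNAP, Cufflinks and the mm10 build appear in the submitters' processing notes; no source used here gives further settings. Unlisted genes were set to 0. Median-of-ratios scaling used 12511 genes (factors 0.919 to 1.07). Testing took genes averaging 1 FPKM or more, without 90 small RNAs, which left 14238 genes, among them all 15 listed mitochondrial genes. Tests used limma-trend (limma 3.58.1, R 4.3.3) on log2(scaled FPKM + 1), which understates fold changes of low genes, with 4 group means, 8 residual degrees of freedom, two-sided, Benjamini-Hochberg adjusted over all genes with a threshold of 0.05; the script was tested on simulated data. Shares were compared with exact permutation tests over 20 relabellings. Symbols, positions and sequences came from GENCODE M21. Named were every listed mitochondrial gene, up to 3 members of each nuclear list with the smallest p per comparison, of which some are printed, and nuclear transcripts sharing 50-base stretches at a mean of at least 1 FPKM. The members and lists were chosen with earlier results of these data known.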

Additional observations from a re-analysis of the deposited data

How the results depend on the processing

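No paired analysis was made, because no mouse number recurs and the sample names do not give the litter. Alternatives changed the pseudocount, filter, scaling, fit, weights or libraries. Counts of members called stayed at 0 in each knockout comparison under every alternative run, and between the wild types ran from 7 (quantile normalization) to 12 (library set as a term); within set A no count could be given, since no residual degrees of freedom were left. The median wild-type difference of the 13 protein-coding genes, 0.52, became 0.36 with FPKM as deposited, 0.054 with quantile normalization, 0.67 rescaled to TPM, 0.75 scaled on genes that are not mitochondrially encoded, 0.24 with array weights, 0.91 within set A and 0.22 within set B, and 0.16 to 0.67 leaving out a mouse. The knockout median of the exon 6-7 line ran from -0.054 (quantile normalization) to 0.18 (within set A), and that of the exon 7 line ran from -0.19 (without KO969) to 0.10 leaving out a mouse. Signs turned between the wild types for mt-Atp8 (-0.067 as deposited, -0.054 quantile, -0.21 within set A, -0.27 to 0.34 leaving out a mouse), mt-Nd3 (-0.094 as deposited, -0.13 quantile, -0.24 array weights, -0.43 within set B, -0.26 to 0.25 leaving out a mouse) and mt-Nd4l (-0.11 within set B, -0.14 to 0.49 leaving out a mouse), and for the exon 7 knockout effect on mt-Nd4l within set A (-0.050). In place of the share, the mean log2 level of the 13 protein-coding genes over the median gene, which weights scarce and abundant genes alike, was lower in all exon 6-7 knockouts than in the wild types, by -0.11 (exact permutation test, p = 0.1). In this comparison the 6 scarce genes had a median log2 fold change of -0.31 and the 7 abundant ones of 0.07. The lowest of the scarce genes was the uncertain mt-Nd4l, at -0.72. The knockout difference in share ran from -0.773 to 1.39 percentage points leaving out a mouse of the exon 7 line. Over all 15 genes the uncalled knockout effects changed sign in 23 of 403 values (exon 6-7) and 63 of 403 (exon 7). The cause was not tested. FPKM gives no read totals, so counting error for the scarce genes is unknown.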
